A study of Mus musculus with 66 samples.

Results

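The DNA methyltransferases Dnmt1, Dnmt3a, Dnmt3b and Dnmt3l and the Tet enzymes Tet1, Tet2 and Tet3 were followed as mouse embryonic stem cells left mitosis, with and without the nuclear receptors Esrrb and Nr5a2. The 7 genes were chosen by name, with earlier results of these data known. Of these, 6 have a row among the 13957 genes of the expression table, and 5 of the 6 reach at least 1 TPM in a group, as do 8999 genes in all. TPM is a measure of transcript abundance relative to all RNA of a library that allows for the length of a gene. Dnmt3a stays under 1 TPM in every group, and Tet3 RNA was not analysed here, so Tet3 is described by Nr5a2 binding alone.

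DNA methylation in mammals is copied onto the new strand after replication by Dnmt1 and laid down on unmethylated sites by Dnmt3a and Dnmt3b. Dnmt3l has no catalytic activity of its own and stimulates the de novo enzymes in stem cells and germ cells. Tet enzymes oxidise 5-methylcytosine to 5-hydroxymethylcytosine and further products, from which unmethylated cytosine can be restored. Naive mouse embryonic stem cells are known for high Tet1 and Tet2, and the step towards the formative and primed states for higher Dnmt3a and Dnmt3b.

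RNA came from an E14Tg2a derivative on a 129/Ola background in which auxin brings about degradation of both receptors. The cells with auxin and the cells without auxin were each taken at 9 stages. These were mitotic arrest, release from it in steps of 10 minutes from 20 to 60 minutes and then at 90 and 120 minutes, and asynchronous culture. Each of these 18 groups had 3 libraries, and both arms carry the same degradable receptors. The arm is given by the sample titles, since the treatment entry reads as control in all 54 RNA libraries. Auxin-treated cells without degradable receptors were not analysed here, so loss of Esrrb, loss of Nr5a2 and auxin itself cannot be told apart. Nr5a2 binding came from E14Tg2a cells in 12 ChIP-seq libraries of Nr5a2 and of input, in mitosis and interphase, and is given as 1 list of 35266 peaks.

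The expression columns hold means over the libraries of a group, made by the authors, so neither an error nor a test per gene can be given here. The authors' deposited table also carries 1 call per gene on its response to auxin, made on these same samples. No source used here states its stages or threshold. Auxin acts on the receptor proteins, so their RNA does not check the loss. Mean Esrrb RNA after release was 3.65 TPM with auxin and 4.01 TPM without auxin, and that of Nr5a2 was 3.58 TPM with auxin and 3.92 TPM without auxin. In bulk RNA, fewer cells of a type and less RNA per cell cannot be told apart. All 10 listed stem cell markers were in the table, with a summed level of 50.9 to 126 TPM with auxin and 55.7 to 170 TPM without auxin. Esrrb is itself 1 of them. Formative markers (7 of 10, with Fgf5, Pou3f1 and Sox3 not analysed here) summed to 10.8 to 24.98 TPM with auxin and 11.9 to 28.3 TPM without auxin. Markers of primitive endoderm (5 of 7), fibroblasts (3 of 8) and the 2-cell-like state (4 of 7) summed to at most 0.751 TPM with auxin and 0.700 TPM without auxin. No marker that was analysed was at 0 in all groups.

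In asynchronous cells Tet1 and Tet2 differed between arms in the opposite direction to the de novo enzyme Dnmt3b. This did not hold at every release time. At 60 minutes Tet1, Tet2 and Dnmt3b were each lower with auxin, at 0.779, 0.805 and 0.949 times their TPM without auxin. At 30 minutes each was higher, at 1.02, 1.03 and 1.22 times. The authors' deposited table calls Tet1 and Tet2 lower with auxin and Dnmt3b higher, and makes no call on Dnmt1, Dnmt3a and Dnmt3l. In asynchronous cells Tet1 stood at 8.96 TPM with auxin and 12.9 TPM without auxin, Tet2 at 4.19 TPM with auxin and 5.84 TPM without auxin, and Dnmt3b at 6.71 TPM with auxin and 5.42 TPM without auxin. After release the genes took unlike courses. Dnmt1 and Dnmt3l stood at 2.64 to 3.01 times the mitotic level at 90 minutes over both arms, while the listed genes together stood at 45493 TPM with auxin and 45046 TPM without auxin, against 17155 TPM with auxin and 17189 TPM without auxin in mitosis. Tet1 was below its mitotic level from 20 to 60 minutes in both arms.

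Over all genes of the authors' deposited table, 7.26% were called lower and 6.74% called higher, which is the background for 2 and 1 of the 6 members. None of the 6 was lower or higher with auxin at all 7 release times, where 5.33% and 3.88% of genes of at least 1 TPM were. The difference between arms shifted for genes in general, with a median log2 difference of 0.08 at 40 minutes and -0.06 at 60 minutes. Measured from the all-gene median of each stage, Tet1, Tet2 and Dnmt3a were below at 7 of 7 release times, as were 8.36% of genes. Of the 6 members 4 were lower with auxin in asynchronous cells, where 71% of genes were.

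**Figure D1:**
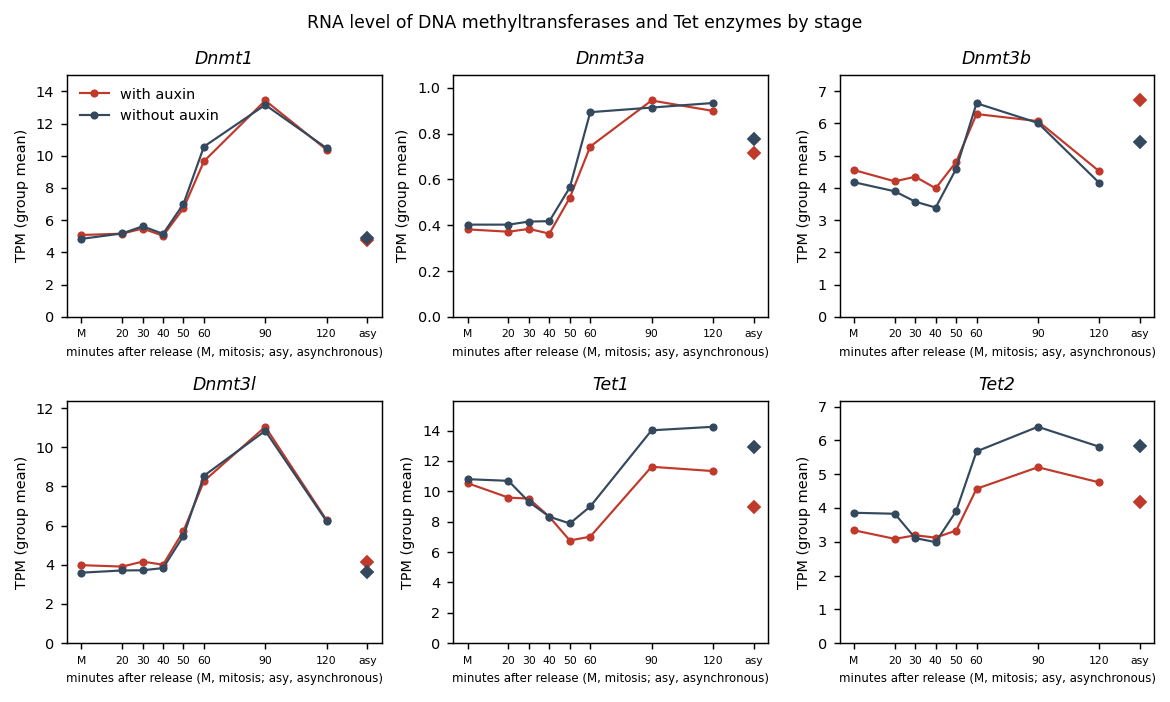
RNA level in TPM (vertical axis, from 0) against stage for 6 genes, with auxin in red and without auxin in dark grey; each point is the authors' mean of 3 libraries and diamonds are asynchronous cells. Tet1 and Tet2 are lower with auxin at every stage but 30 and 40 minutes, where the arms are close, and in asynchronous cells Dnmt3b is at 6.71 TPM with auxin and 5.42 TPM without auxin.

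Tet1, the more abundant of the Tet genes measured, stood at like levels in both arms in mitosis, at 10.5 TPM with auxin and 10.8 TPM without auxin. With auxin it stood at 9.59, 9.52, 8.32, 6.76, 7.01, 11.6 and 11.3 TPM from 20 to 120 minutes. Without auxin these values were 10.7, 9.30, 8.33, 7.88, 9.002, 14.0 and 14.3 TPM. The arms were close at 30 and 40 minutes, and the level with auxin was the lower one at each later time. The log2 difference with auxin minus without auxin, of TPM + 1, was -0.03 in mitosis, -0.14 at 20 minutes, 0.03 at 30 minutes and -0.002 at 40 minutes. It was -0.19 at 50, -0.32 at 60, -0.25 at 90 and -0.31 at 120 minutes, and -0.48 in asynchronous cells. With auxin, Tet1 was at 0.779 times its TPM without auxin at 60 minutes and 0.795 times at 120 minutes. In asynchronous cells it was at 0.693 times, a difference that 0.889% of genes matched or went below. The mean difference over the 7 times was -0.17, and 2.98% of genes were as low or lower. A mean over the last 4 times alone, 50 to 120 minutes, gave -0.27. The summed stem cell markers were lower with auxin at every stage, also at 30 minutes where Tet1 was not. In asynchronous cells these markers summed to 105 TPM with auxin and 139 TPM without auxin. Their part in the differences of Tet1 and Tet2 was not tested.

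The sequence before the Tet1 start is shown because an Nr5a2 peak covers most of it. It lies at chr10:62887325-62887574 on the minus strand of GRCm38.p6, the assembly that mm10 names, and holds the 250 bases upstream of the RefSeq start used here. The RefSeq gene begins at -0.145 kb from this start, so part of the stretch lies inside the annotated gene. Capitals mark the 195 bases that lie inside the peak of class L at chr10:62887380-62888057.
Tet1 upstream: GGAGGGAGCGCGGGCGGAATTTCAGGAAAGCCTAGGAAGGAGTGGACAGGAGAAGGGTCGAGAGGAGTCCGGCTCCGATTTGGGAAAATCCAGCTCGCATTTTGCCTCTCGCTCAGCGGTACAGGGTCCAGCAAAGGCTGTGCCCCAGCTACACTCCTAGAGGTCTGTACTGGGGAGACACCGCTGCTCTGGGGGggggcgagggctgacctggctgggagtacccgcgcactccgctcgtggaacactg
Of the 13 promoter windows that RefSeq gives for the 7 genes, each running from 250 bases before to 50 after a start, this was the only one that overlapped a peak. Among all 32851 windows, 6.93% did.

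Tet1 had 10 Nr5a2 peaks within the gene or 10 kb of either side, and 1.61% of genes had as many or more. The gene spans 82.9 kb at chr10:62804570-62887469, against a median span of 23270 bp and a median of 1 peak over 13869 genes of the table with 1 RefSeq position. Of the 10 peaks 8 were of class L and 2 of class dB. The codes L, eB, dB and nB are the authors' own, and the sources used here give no meaning for them. Of all 35266 peaks, 65.1% were of class L, 18.1% of class eB, 10.3% of class dB and 6.46% of class nB. Upstream of the start were the centres of 5 of the 10, at -0.39 kb, -1.18 kb, -5.86 kb, -7.25 kb and -9.94 kb from it. The farthest of these, chr10:62895176-62899359 of class dB, is 4183 bp wide. A lncRNA gene, Gm51805, overlaps this end of Tet1 at chr10:62865670-62910643 and has no strand in the tables used here. The Tet1 value is uncertain as far as reads of Gm51805 could be counted to it.

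Tet2, which lacks the CXXC domain of Tet1 and works beside it in these cells, differed between arms already in mitosis. It stood at 3.34 TPM with auxin and 3.86 TPM without auxin there. With auxin it stood at 3.08, 3.19, 3.12, 3.33, 4.57, 5.20 and 4.76 TPM from 20 to 120 minutes. Without auxin these values were 3.83, 3.11, 2.99, 3.90, 5.67, 6.40 and 5.81 TPM. Levels with auxin were below those without auxin at 20 minutes and from 50 minutes on, and slightly above at 30 and 40 minutes. The log2 difference was -0.16 in mitosis, -0.24 at 20, 0.03 at 30, 0.05 at 40 and -0.18 at 50 minutes. From 60 to 120 minutes it was -0.26, -0.25 and -0.24, and in asynchronous cells -0.40. There Tet2 was at 0.716 times its TPM without auxin, which 1.37% of genes matched or went below. The mean over the 7 times was -0.16, with 3.43% of genes as low or lower.

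**Figure D2:**
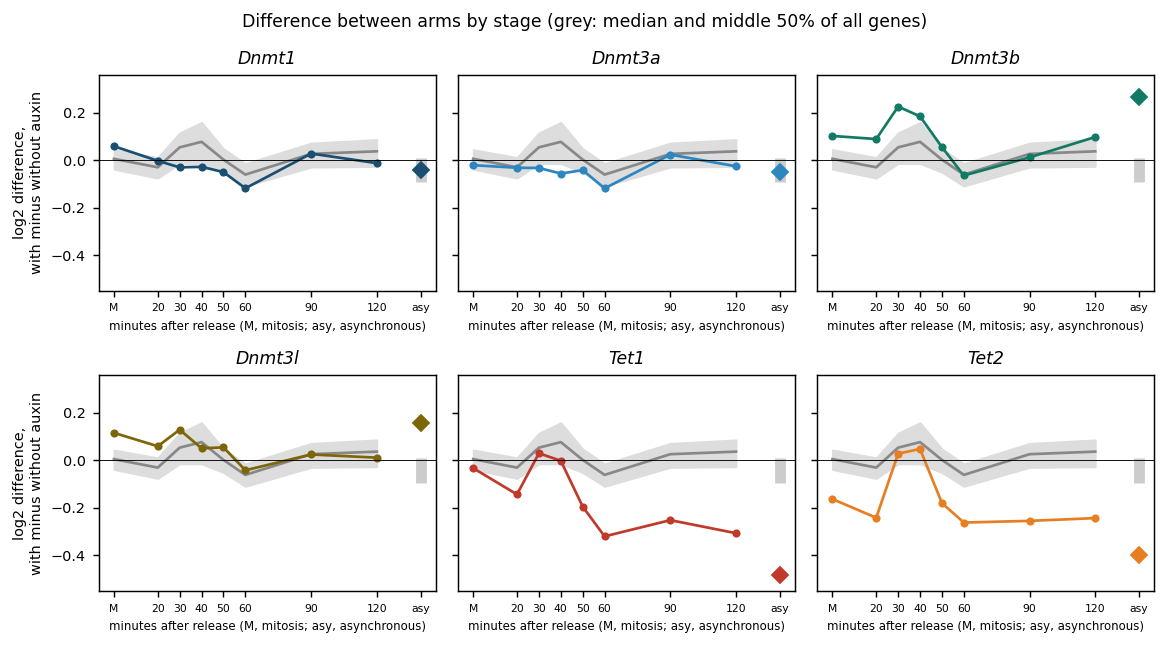
Log2 difference with auxin minus without auxin (of TPM + 1, vertical axis) by stage for 6 genes, with diamonds for asynchronous cells; the grey line and band are the median and middle 50% of 8999 genes. Tet1 lies at -0.19 to -0.32 from 50 minutes on, Tet2 at -0.18 to -0.26, and Dnmt3b at 0.26 in asynchronous cells, while Dnmt1 and Dnmt3a lie between -0.12 and 0.06.

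The sequences before the starts of Tet2 and Dnmt3b, the other called genes, are set side by side because neither window overlaps a peak and both are rich in CpG, the letters that these enzymes act on. Tet2 upstream lies at chr3:133544391-133544640 on the minus strand and Dnmt3b upstream at chr2:153649199-153649448 on the plus strand, both in GRCm38.p6 from RefSeq. The annotated Tet2 gene begins at -0.746 kb from the start used here, so its stretch lies inside the gene. Capitals mark each CpG.
Tet2 upstream: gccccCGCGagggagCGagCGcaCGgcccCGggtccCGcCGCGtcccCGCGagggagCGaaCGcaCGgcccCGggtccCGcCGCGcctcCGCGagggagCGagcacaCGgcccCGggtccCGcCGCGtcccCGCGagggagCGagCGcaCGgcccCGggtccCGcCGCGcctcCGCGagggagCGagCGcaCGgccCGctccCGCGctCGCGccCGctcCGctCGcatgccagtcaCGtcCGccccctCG
Dnmt3b upstream: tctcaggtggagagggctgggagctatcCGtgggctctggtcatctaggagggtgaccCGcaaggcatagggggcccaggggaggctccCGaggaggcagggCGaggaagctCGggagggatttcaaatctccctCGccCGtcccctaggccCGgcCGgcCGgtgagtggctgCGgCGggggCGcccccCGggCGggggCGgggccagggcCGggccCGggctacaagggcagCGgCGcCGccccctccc
The Tet2 stretch holds 51 CpG and the Dnmt3b stretch 21. In the window with the 50 bases after the start Tet2 holds 57, which 0.152% of all windows match or exceed, and Dnmt3b 30, which 11.7% do. The median window holds 7. The Tet2 window is also repetitive, with a run of 43 bases that occurs again without overlap, and 0.28% of windows hold a repeated run as long.

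Tet2 had 7 peaks within the gene or 10 kb of it, all of them inside the gene, and 4.38% of genes had as many or more. That share is over genes of any span, with a median of 23270 bp, and takes no account of gene length. The gene spans 81.5 kb at chr3:133463677-133545136, and the peaks ran from 1.11 kb to 25.7 kb downstream of the start, in its first part. They were of class L in 3 cases, dB in 2, eB in 1 and nB in 1. None lay upstream within 10 kb, where Tet1 had 5.

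Tet3, known from mouse zygotes where it acts on the paternal genome, had 2 peaks within the gene. They were of class L and class eB, at 19.7 kb and 17.96 kb downstream of the start. The gene spans 94.8 kb at chr6:83362373-83457208. A lncRNA gene inside this span, B230319C09Rik, was at a mean after release of 0.128 TPM with auxin and 0.119 TPM without auxin.

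**Figure D3:**
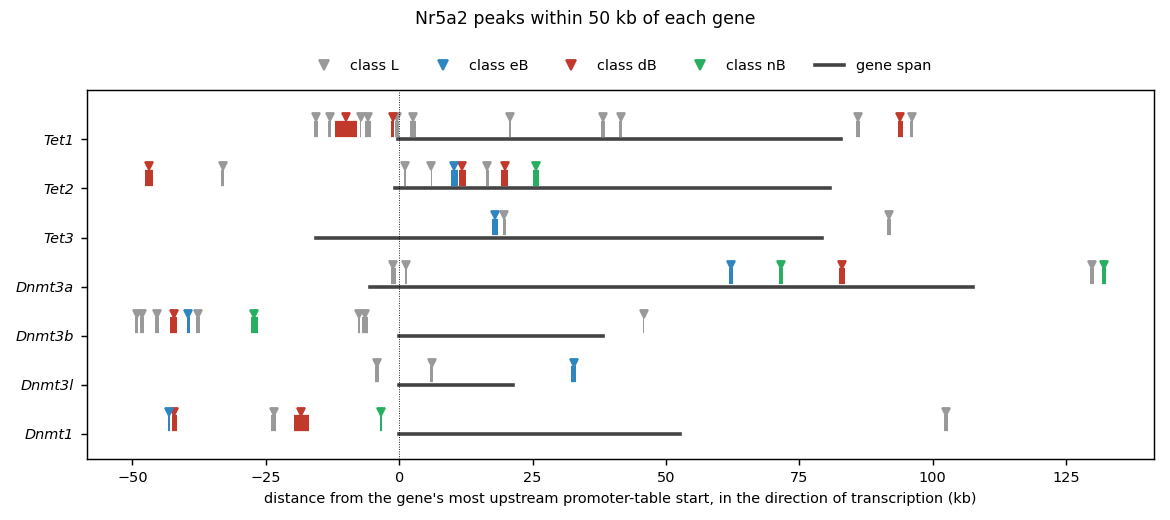
Nr5a2 peaks within 50 kb of the 7 genes, by distance in kb from the most upstream start in the promoter table, in the direction of transcription; dark lines are RefSeq gene spans, bars have the width of the peak and colours give the authors' class code. At Tet1, 6 peaks are centred from -9.94 kb to 2.52 kb, 7 peaks of Tet2 lie from 1.11 kb to 25.7 kb inside the gene with 2 more at -33.1 kb and -46.9 kb, and Dnmt1 has none inside its span.

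Dnmt3b, the de novo enzyme of early development, was higher with auxin in most groups but not at 60 minutes. In mitosis it stood at 4.55 TPM with auxin and 4.18 TPM without auxin. With auxin it stood at 4.20, 4.35, 3.99, 4.81, 6.29, 6.07 and 4.52 TPM from 20 to 120 minutes. Without auxin these values were 3.89, 3.57, 3.39, 4.59, 6.63, 6.02 and 4.16 TPM. The level with auxin was above that without auxin at 6 of 7 times and stood at 1.22 times it at 30 minutes and 1.18 times at 40 minutes. At 60 minutes it stood at 0.949 times and at 90 minutes at 1.01 times. Measured from the all-gene median, Dnmt3b was above at 5 of 7 times. The log2 difference was 0.26 in asynchronous cells, where 0.733% of genes were as high or higher, and 0.09 as a mean over the 7 times, where 8.1% were. The mean over 50 to 120 minutes was 0.025, and the largest single differences were 0.23 at 30 minutes and 0.18 at 40 minutes. Formative markers were lower in sum with auxin in asynchronous cells, at 13.5 TPM with auxin and 15.5 TPM without auxin. Their part in the difference of Dnmt3b was not tested. Dnmt3b-ps1, a close copy also known as Dnmt3c, lies at chr2:153706484-153730013 and was not analysed here, so the value of Dnmt3b is uncertain as far as reads of the copy could be counted to it.

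Within 10 kb Dnmt3b had 3 peaks, all of class L, and none of them inside the gene at chr2:153649411-153687730. The centres of 2 of them lay upstream, at -6.47 kb and -7.56 kb from the start, and the other lay past the 3' end at 45.8 kb. Within 50 kb the count was 10, among them peaks of class dB, eB and nB at -42.2 kb, -39.5 kb and -27.1 kb.

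The ratio of Tet1 to Dnmt3b within a group does not change when a whole column is multiplied by the same factor. It was not computed with quantile normalization. This ratio was chosen after the values were seen. With auxin the TPM of Tet1 was 2.31 times that of Dnmt3b in mitosis, 1.11 times at 60 minutes and 2.51 times at 120 minutes. Without auxin it was 2.59, 1.36 and 3.43 times. In asynchronous cells it was 1.33 times with auxin and 2.39 times without auxin. Summed, Tet1 and Tet2 came to 13.1 TPM with auxin and 18.8 TPM without auxin in asynchronous cells. The Dnmt3 genes summed to 11.6 TPM with auxin and 9.81 TPM without auxin there.

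Dnmt3a, the other de novo enzyme, was the least abundant, at 0.714 TPM with auxin and 0.775 TPM without auxin in asynchronous cells. In mitosis it stood at 0.382 TPM with auxin and 0.402 TPM without auxin. At 40 minutes it stood at 0.363 TPM with auxin and 0.418 TPM without auxin, and at 60 minutes at 0.743 TPM with auxin and 0.893 TPM without auxin. At 90 minutes it stood at 0.944 TPM with auxin and 0.913 TPM without auxin, and at 120 minutes at 0.899 TPM with auxin and 0.933 TPM without auxin. The level with auxin was the lower one at 6 of 7 times, from 0.832 times that without auxin at 60 minutes to 0.963 times at 120 minutes, and stood at 1.03 times it at 90 minutes. At these levels the log2 scale with 1 added understates change. The mean difference was -0.04, and -0.10 with 0.1 added. The gene is long, 112.9 kb at chr12:3801559-3914443, and RefSeq gives a start far inside it at chr12:3891744, beside those near chr12:3806980. This inner start is known as that of the short form, which is the main form in embryonic stem cells. Of its 5 peaks, the one of class dB at chr12:3889434-3890572 was centred at -1.74 kb from the inner start, and 2 of class L lay on either side of the outer starts. The table gives 1 value per gene, so the forms were not told apart. Dnmt3aos and Gm31623, lncRNA genes on the other strand, overlap Dnmt3a, and whether reads were counted by strand is not stated in what was used here.

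Dnmt3l, the cofactor without catalytic activity, stood at 3.98 TPM with auxin and 3.60 TPM without auxin in mitosis. It stayed between 3.91 and 4.16 TPM with auxin and between 3.71 and 3.83 TPM without auxin up to 40 minutes. At 50, 60, 90 and 120 minutes it stood at 5.73, 8.28, 11.0 and 6.29 TPM with auxin, and at 5.48, 8.55, 10.8 and 6.23 TPM without auxin. In asynchronous cells it was at 4.14 TPM with auxin and 3.61 TPM without auxin, a log2 difference of 0.16 that 2.69% of genes matched or exceeded. After release the mean difference was 0.04, with 30.4% of genes as high or higher. Dnmt3l had 2 peaks of class L. Its 5' end overlaps Aire, a gene on the other strand at 0.582 TPM with auxin and 0.669 TPM without auxin after release. In asynchronous cells Aire was at 2.52 TPM with auxin and 2.32 TPM without auxin. The Dnmt3l value is uncertain as far as reads of Aire could be counted to it.

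Dnmt1, the maintenance enzyme, was close to the same level in both arms. It stood at 5.08 TPM with auxin and 4.84 TPM without auxin in mitosis. From 20 to 120 minutes it stood at 5.16, 5.48, 5.03, 6.74, 9.66, 13.4 and 10.4 TPM with auxin. Without auxin these values were 5.18, 5.62, 5.15, 7.01, 10.6, 13.2 and 10.5 TPM, and the courses of the arms ran close together. The mean log2 difference was -0.03, and from -0.12 to 0.03 at single times. In asynchronous cells it was at 4.76 TPM with auxin and 4.93 TPM without auxin. Its 120 minute level was 2.18 times the asynchronous one with auxin and 2.13 times without auxin. The gene held no peak, and 1 peak of class nB was centred at -3.43 kb from its most upstream start. Within 50 kb there were 6, of which 2 were of class dB, at -18.4 kb and -42.1 kb. Of all genes 70.5% had at least 1 peak in such a window, as had all 7 of the genes described here.

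Across the release the members differed in how they returned. These ratios all share the mitotic column of their arm and depend on how columns are scaled. With columns scaled to 1 total or quantile normalized, the 60 minute ratios without auxin of Dnmt1, Dnmt3a, Dnmt3b, Dnmt3l and Tet2 lay below mitosis in place of above it, while Tet1 was below it under each. Without auxin, Dnmt3l was at least 2-fold above mitosis at 60 minutes on the scale of TPM + 1, where 50.8% of genes were. On the plain TPM scale Dnmt1 at 2.18 times, Dnmt3a at 2.22 times and Dnmt3l at 2.38 times all were. On the scale of TPM + 1, Dnmt1 and Dnmt3l were at 90 minutes, where 44.9% were. The median log2 ratio to mitosis at 60 minutes was 0.38 with auxin and 0.51 without auxin over the 6 members. Over all genes it was 0.95 with auxin and 1.01 without auxin. Dnmt3b, Tet1 and Tet2 were below mitosis at 40 minutes without auxin, as were 31.4% of genes. With auxin at that time Dnmt1 and Dnmt3a were also below it, at -0.01 and -0.02 on the log2 scale.

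On the deposited scale Tet1 had the deepest low point of the 6, at 50 minutes in both arms. It stood there at 0.642 times its mitotic level with auxin and 0.730 times without auxin. It passed the midpoint between mitosis and its highest level, by straight lines between times, at 86.5 minutes with auxin and 81.1 minutes without auxin. The other 5 passed theirs between 54.2 and 58.6 minutes with auxin and between 53.1 and 56.9 minutes without auxin. The median gene passed it at 49.1 minutes with auxin and 49.6 minutes without auxin. Low points and midpoint times depend on the scaling of columns too, and neither was computed with columns scaled otherwise. Listed genes summed to 17155 TPM in mitosis and 38461 TPM at 50 minutes with auxin, and to 17189 and 38477.5 TPM without auxin.

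**Figure D4:**
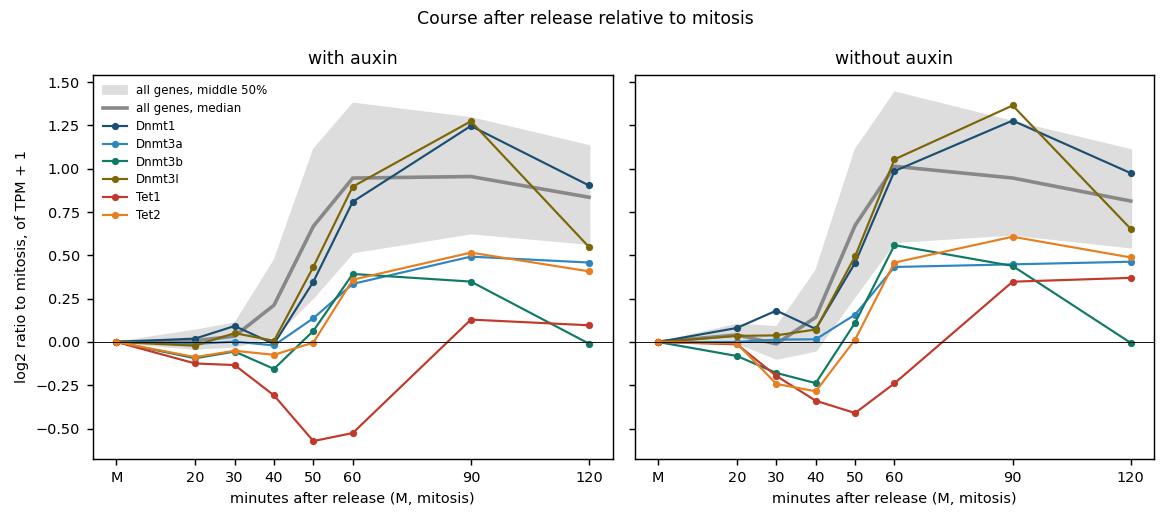
Log2 ratio to mitosis (of TPM + 1, vertical axis) against minutes after release, with auxin on the left and without auxin on the right; lines are 6 genes, grey the median and middle 50% of 8999 genes. Tet1 is below 0 up to 60 minutes in both panels, and Dnmt1 and Dnmt3l reach their highest level at 90 minutes.

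The later course also differed. On the deposited scale Dnmt1, Dnmt3l and Tet2 had their highest release level at 90 minutes without auxin, as had 23.6% of genes. Dnmt3b had its at 60 minutes. At 120 minutes Dnmt3b stood at 4.52 TPM with auxin and 4.16 TPM without auxin, close to mitosis on this scale alone. Without auxin, listed genes summed to 40735 TPM at 120 minutes, against 17189 TPM in mitosis. The times of the highest level depend on the scaling of columns and were not computed with columns scaled otherwise. The log2 difference of 120 minus 60 minutes was -0.40 with auxin and -0.56 without auxin for Dnmt3b and -0.35 with auxin and -0.40 without auxin for Dnmt3l. For Tet1 it was 0.62 with auxin and 0.61 without auxin, and for Tet2, Dnmt1 and Dnmt3a it lay between -0.01 and 0.12 over both arms. These sizes depend on the scaling of columns. Without auxin, quantile normalization and columns scaled to 1 total gave -0.28 and -0.32 for Dnmt3b, -0.14 and -0.16 for Dnmt3l, 0.28 and 0.24 for Tet2, 0.92 and 0.82 for Tet1, 0.06 and 0.13 for Dnmt3a, and 0.29 and 0.22 for Dnmt1.

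In asynchronous cells with auxin the order from the highest level down was Tet1, Dnmt3b, Dnmt1, Tet2, Dnmt3l and Dnmt3a. Without auxin it was Tet1, Tet2, Dnmt3b, Dnmt1, Dnmt3l and Dnmt3a. Whether neighbours in these orders differ beyond the spread of libraries cannot be said from group means. The orders also rest on which part of each gene was quantified, which is not given in the sources used here.

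Genes that work with these enzymes were taken from a list of 37, of which 35 were analysed here. By the authors' deposited table, 3 of the 35 were called lower and 3 higher, each 8.57% of the list, where 7.26% and 6.74% of all genes were. Of the 34 of at least 1 TPM 17 were lower on average after release and 17 higher, with a median log2 difference of 0.00, beside 0.02 over all genes. Of 11 demethylation partners of at least 1 TPM 7 were lower on average and 4 higher, with a median of -0.01, and Idh2 and Cxxc5 of this group had the largest differences of the list. Idh2, the mitochondrial isocitrate dehydrogenase that makes the cosubstrate alpha-ketoglutarate, was called lower by the authors' deposited table and had a mean after release of 1.07 TPM with auxin and 1.64 TPM without auxin. It was lower at 7 of 7 times, with a mean log2 difference of -0.34, and -0.58 in asynchronous cells. Idh1, its cytosolic counterpart, stood at 3.39 TPM with auxin and 3.25 TPM without auxin. Cxxc5, a CXXC domain protein, was called lower by the authors' deposited table, at 1.43 TPM with auxin and 1.92 TPM without auxin. It was lower at 7 of 7 times, with a mean log2 difference of -0.26, and -0.07 in asynchronous cells.

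Tdg, the glycosylase that removes the oxidised bases Tet enzymes make, stood at 2.42 TPM with auxin and 2.46 TPM without auxin, and Ogt, a partner of Tet proteins, at 5.59 TPM with auxin and 5.64 TPM without auxin. The authors' deposited table calls neither of them, nor Idh1, and these 3 are named here after their values were seen. Gadd45b and Gadd45g, stress genes linked to demethylation, were called higher by the authors' deposited table. Gadd45g stood at 0.757 TPM with auxin and 0.818 TPM without auxin after release, against the direction of its call, while its log2 difference in asynchronous cells was 0.26. Gadd45b stood at 3.33 TPM with auxin and 3.15 TPM without auxin after release, with a log2 difference of 0.33 in asynchronous cells. Its level with auxin was the lower one at 3 of 7 times. Gadd45a, not called and named after its values were seen, had a mean difference of 0.07 after release and -0.37 in asynchronous cells.

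Among 7 maintenance partners 1 was called by the authors' deposited table. That was Uhrf1, which brings Dnmt1 to hemimethylated sites, called lower at 16.4 TPM with auxin and 17.1 TPM without auxin. Uhrf1 was lower with auxin at 5 of 7 times. Its log2 difference in asynchronous cells was -0.05, where the all-gene median was -0.04. Hells, a chromatin remodeller needed for methylation, had the largest difference upwards of the list, 0.08, at 15.8 TPM with auxin and 15.1 TPM without auxin. Hells was higher with auxin at 5 of 7 times, and its log2 difference in asynchronous cells was -0.05. Among 5 de novo partners and histone enzymes the authors' deposited table calls none. Setd2, which writes the histone mark that Dnmt3 enzymes read in gene bodies, stood at 5.20 TPM with auxin and 4.94 TPM without auxin. Ehmt2, a histone H3 lysine methyltransferase, stood at 2.29 TPM with auxin and 2.51 TPM without auxin. Of 7 methyl-CpG readers the authors' deposited table calls Zbtb33 higher, at 1.16 TPM with auxin and 1.04 TPM without auxin. Its level with auxin was the higher one at 3 of 7 times. Of 4 genes of methyl donor supply and CpG islands none was called by the authors' deposited table.

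**Figure D5:**
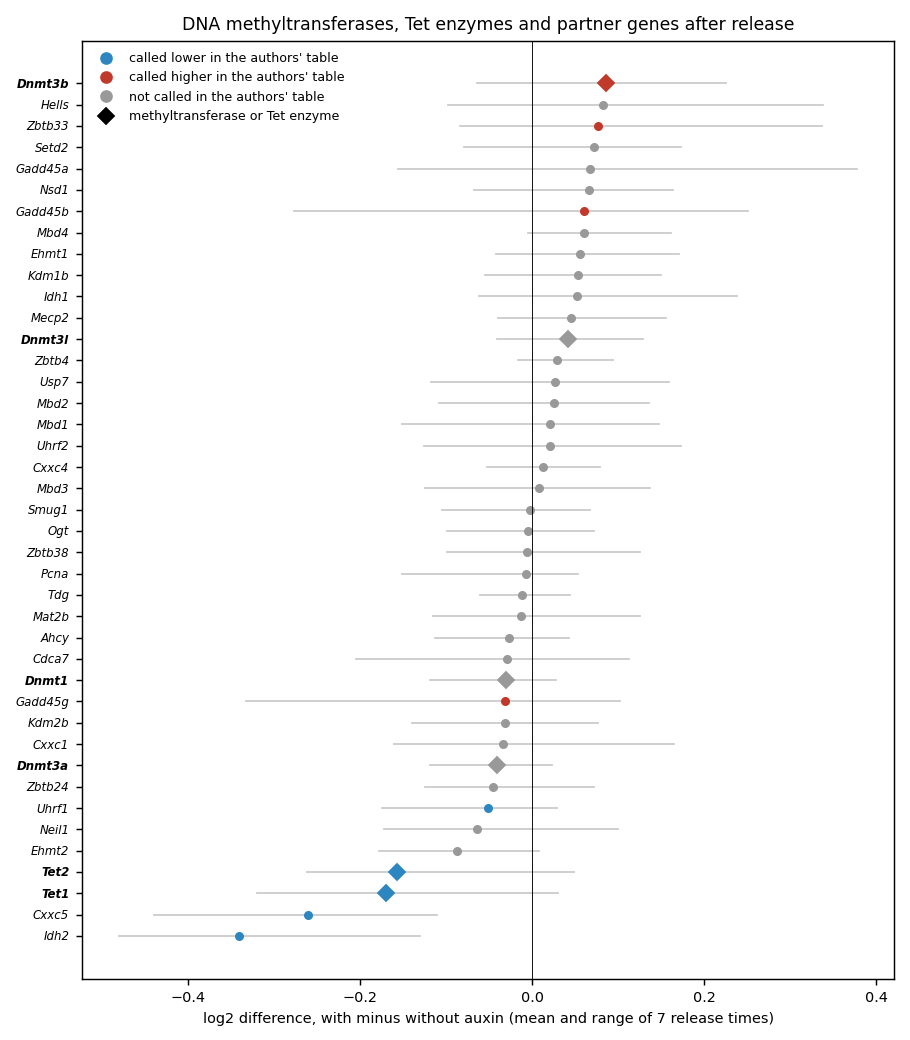
Mean log2 difference with auxin minus without auxin over 7 release times (points; horizontal axis) and its range over times (lines) for 6 members (diamonds, bold) and 35 partner genes; colours give the authors' call. Idh2 at -0.34 and Cxxc5 at -0.26 lie below Tet1 at -0.17 and Tet2 at -0.16, and Dnmt3b at 0.09 is at the upper end.

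The genes with courses most like each member were found by Pearson's r of log2(TPM + 1) over the 18 groups, which share the release as a common course. For Tet1 they were Vps54 (r = 0.959), Tfpi (0.929) and Ncor1 (0.910), and only 5 of 8999 genes had r of at least 0.9. Of these 3, Vps54 and Tfpi were called lower in the authors' deposited table. For Tet2 they were Trim24 (0.979), Map1b (0.977) and Rfx2 (0.971), all called lower by the authors' deposited table, and 167 genes had r of at least 0.9. The 18 groups include both arms, so r also reads the difference between arms that the call reports on. Dnmt3b was closest to Tfdp2 (0.925), Pou2f1 (0.923) and Slco4c1 (0.920), with 6 genes at r of at least 0.9, and Pou2f1 and Slco4c1 were called higher by the authors' deposited table. Dnmt1 was closest to Ipo13 (0.993), Pcnt (0.992) and Urb1 (0.991), and Dnmt3l to Spen (0.982), Pcbp4 (0.980) and Efemp2 (0.978). These 2 members had r of at least 0.9 with 2301 and 1927 genes. Among the 5 members of at least 1 TPM, Dnmt1 and Dnmt3l were the most alike, with r = 0.959, and Dnmt3b and Tet1 the least, with r = 0.03.

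The letters TCAAGGTCA, the extended response element that both receptors are known to bind, were searched on both strands of the promoter windows. They were in 0 of the 13 windows of the 7 genes and in 0.423% of all windows. The shorter AAGGTCA, which lies within it, was also in 0 of 13 and in 4.72% of all windows. A missing match says only that these letters are not in these windows.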

How the data were processed

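RNA libraries were depleted of ribosomal RNA, stranded and paired-end, per the labels' protocols. Expression was deposited by the authors as TPM, 1 column per group of 3 libraries. Tripling each of the 246530 non-zero values left whole units of the 9th decimal, to within 0.02 of a unit, which means of 3 do. STAR, RSEM, DESeq2, Bowtie2, MACS2 and mm10 are listed, without a version, per the submitters' processing notes. Which part of each gene was quantified is not given in the sources used here. Depth is unknown because TPM does not keep it. Listed genes sum to between 17155 and 49059 TPM per column. The authors also deposited a call per gene in words, and a peak list with positions and class codes; neither the pooling behind the peaks nor whether positions count from 0 or 1 is given in the sources used here, so printed peak edges may be off by 1 base.

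From these, log2(TPM + 1) was taken and differences were computed as with auxin minus without auxin, per stage and as a mean over the 7 release times. Shares over genes use genes of at least 1 TPM in a group. No test over libraries could be made on group means. The authors' calls and shares over all genes are given, but neither replaces such a test. A share ranks genes against each other and does not measure the spread between libraries. Whether libraries of 1 group were separate cultures is not stated. Peaks were assigned within a gene or 10 kb of it by RefSeq positions on GRCm38.p6, and promoter windows and sequences came from RefSeq on that build. Members and lists were chosen with earlier results of these data known. Named are all members, called partners and the 3 largest differences each way, and for each member of at least 1 TPM the 3 genes of highest r. Functions were tested on simulated data. Python 3.11.15, numpy 2.4.6 and pandas 2.3.3 were used.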

Additional observations from a re-analysis of the deposited data

How the results depend on the processing

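No paired analysis was possible because the table has 1 column per group and carries no replicate numbers, so leaving out single replicates was not run either. The signs of the release differences of all 6 genes held under each alternative tried, while sizes moved. Dnmt3a went from -0.04 to -0.10 with a pseudocount of 0.1 and to -0.10 as a ratio of summed TPM, an alternative added after seeing the data. Dnmt3l went from 0.04 to 0.026 with each stage centred on its median, to 0.027 without 30 minutes and to 0.012 over 50 to 120 minutes, where Dnmt3b was 0.025 and Tet1 -0.27. Without 60 minutes Dnmt1 was -0.016. Members lower at all 7 times numbered 0, 3 with stages centred and 2 with quantile normalization. The last also turned the asynchronous difference of Dnmt1 to 0.040.

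Ratios to mitosis depend on scaling, since listed genes sum to more TPM after release. At 60 minutes quantile normalization gave -0.33 for Dnmt1, -0.15 for Dnmt3a, -0.74 for Dnmt3b, -0.26 for Dnmt3l and -0.83 for Tet2, and columns scaled to 1 total gave -0.34, -0.14, -0.72, -0.23 and -0.79, where the deposited values gave ratios above 0. Tet1 was below mitosis under each. The change of Dnmt1 from 60 to 120 minutes, -0.01, became 0.29 with quantile normalization, 0.22 with 1 total and 0.094 in the arm with auxin. The low points of Dnmt1 and Dnmt3l relative to mitosis, 0.08 and 0.03 without auxin, were -0.012 and -0.021 with auxin. Peak counts moved with the window, to 5 at Tet1, 1 at Dnmt3l and 0 at Dnmt3b and Dnmt1 within the gene alone, and to 6 at Dnmt1 and 10 at Dnmt3b within 50 kb. The causes were not tested.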
